A study of Gallus gallus with 12 samples.

Results

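Microglia of the chick hypothalamus were compared after an injection of lipopolysaccharide (LPS) and after saline, over birds with and without early heat conditioning. All 12 libraries of the series that were titled as RNA-seq entered the comparison, 6 with LPS and 6 with saline, so its members are the whole series of 12. The cells were collected by FACS (sorting of labelled cells by flow cytometry), 1 library for each pool of 10 to 12 chicks (Gallus gallus) whose anterior hypothalamus had been dissected, and the labels give no strain. In both arms 3 pools came from chicks that had spent 24 h at 39°C on day 3 after hatching (conditioned) and 3 from chicks that had not (non-conditioned). The 4 groups were therefore saline non-conditioned, saline conditioned, LPS non-conditioned and LPS conditioned, with 3 pools each. All birds received an injection into the third ventricle on day 10 and were killed on day 11, 24 h later, so that surgery and injection were common to both arms. Because each library is a pool, differences between single birds were not measured.

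Microglia are the resident macrophages of the brain. LPS is a component of the outer membrane of Gram-negative bacteria. In mammals it is sensed by macrophages through TLR4 and its co-receptors. These switch on NF-kB and interferon signalling and so the transcription of cytokines, chemokines and antimicrobial genes. The first wave of this transcription is short, and feedback inhibitors follow it. The present samples were taken 24 h after the injection. Genes are given by versioned Ensembl identifier, since none of the identifiers could be paired with a symbol. For this reason no gene is assigned a role, no sequence is shown, and the microglial label was not checked against marker genes.

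Total counts ran from 189180 to 963146 per saline library and from 300739 to 615505 per LPS library. Neither total counts, nor genes detected, nor the share of the 10 most abundant genes separated the arms (exact permutation tests, 2-sided, p = 0.861, 0.426 and 0.593, adjusted p = 0.861 for each of the 3). The LPS libraries held 443154 ± 118523 counts and 8859 ± 379 detected genes (SD, n = 6), and the saline libraries 467346 ± 288635 and 8590 ± 708 (SD, n = 6). The arms overlapped on each of the first 5 principal components of log2 expression. On the first component only LPS non-conditioned replicate 1 (0.0531) lay within the saline range, whose highest score was 1.56. The other LPS libraries lay from 4.97 to 9.69. On each component 1 library lay farthest out. On the first 3 these were saline non-conditioned replicate 2 (score -41.0), replicate 3 of the same group (-36.9) and LPS non-conditioned replicate 1 (-29.8), and on components 4 and 5 saline conditioned replicate 2 (23.6) and LPS non-conditioned replicate 3 (27.4).

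With both conditioning states pooled, 27 genes rose and 9 fell with LPS out of 5170 that were tested. The 36 genes are 0.696% of those tested (edgeR quasi-likelihood test with conditioning as a covariate, Benjamini-Hochberg adjusted p under 0.05). This excess of rises was smaller in proportion at an adjusted p under 0.1, with 36 genes higher and 25 lower. It was absent at an unadjusted p under 0.05, with 222 higher and 253 lower (edgeR for both). The 27 genes that rose changed by a log2 fold change between 0.52 and 2.41, with a median of 0.9996. At least a doubling was reached by 13 of them, and 2 rose by less than 1.5-fold. The 9 genes that fell changed by between -2.87 and -0.69 on that scale, with a median of -0.88, and 4 of them fell to 50% of their saline level or less on the fitted scale. Over all tested genes the median log2 fold change was 0.003, and 50.6% of them lay above 0. In bulk libraries, fewer cells of a type and less RNA per cell cannot be told apart.

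**Figure D1:**
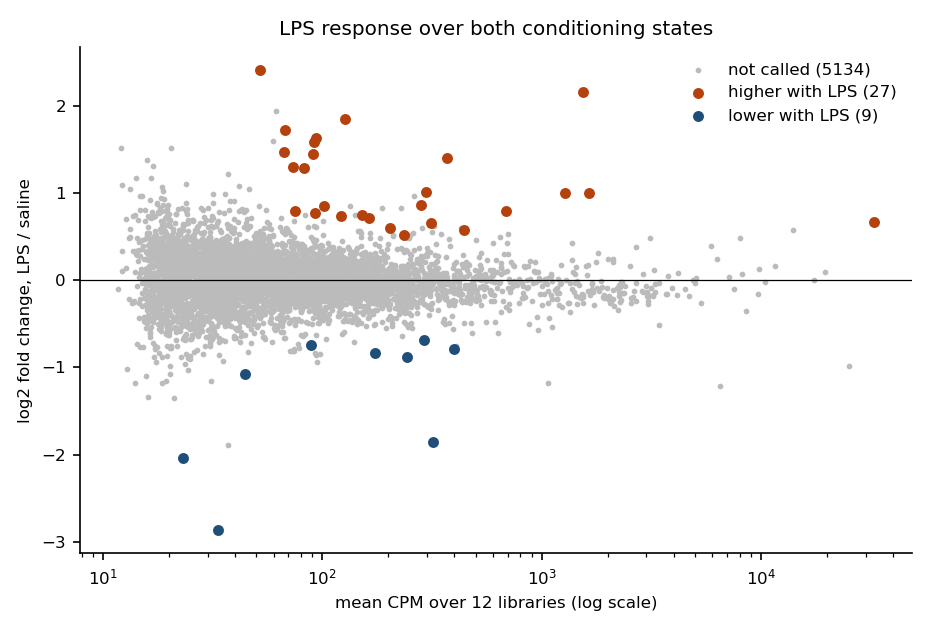
The fitted log2 fold change of LPS against saline (vertical axis) is plotted against the mean CPM over 12 libraries (horizontal axis, log scale), 1 point for each of 5170 genes. The 27 genes higher with LPS lie between 0.52 and 2.41, the 9 lower genes between -2.87 and -0.69, and most called genes lie in the upper range of abundance.

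Calls were most frequent among abundant genes. In the lowest tertile of tested genes by mean CPM (counts scaled by TMM to the same library total) 0.116% were called, in the middle tertile 0.58% and in the highest tertile 1.39%. All 27 raised genes belonged to the middle tertile (8 genes) or the highest tertile (19 genes). Of the 9 lowered genes 2 were in the lowest tertile, 2 in the middle and 5 in the highest. The level below which single libraries carry little information was 3 counts, or 3.11 to 15.9 CPM by the total of the library.

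The largest rise was in ENSGALG00000020316.5. Its level with saline was 6.10, 21.9 and 11.2 CPM in non-conditioned pools and 23.8, 8.45 and 19.6 CPM in conditioned pools. With LPS it was 105, 111 and 93.6 CPM without conditioning and 70.2, 83.0 and 72.5 CPM with it. The lowest LPS library thus lay well above the highest saline library, and the LPS libraries of non-conditioned birds all lay above those of conditioned birds. Over 6 pools each the gene went from 15.2 ± 7.52 to 89.1 ± 16.8 CPM (SD, n = 6), which is a fitted log2 fold change of 2.41 (standard error 0.26; adjusted p = 6.66e-06, edgeR). The saline level rests on few counts, since these libraries held 2, 4, 5, 13, 2 and 19 counts.

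The second largest rise was in ENSGALG00000027716.2, a gene among the 106 most abundant of those tested. Its saline libraries lay at 293, 515 and 743 CPM without conditioning and at 676, 545 and 579 CPM with it. Its LPS libraries lay at 2873, 2368 and 2056 CPM without conditioning and at 4046, 1672 and 2084 CPM with it. All 6 LPS pools were above all 6 saline pools, and LPS conditioned replicate 1 was the highest of all. The gene rose from 558 ± 156 to 2516 ± 849 CPM (SD, n = 6), which is a fitted log2 fold change of 2.17 (standard error 0.20; adjusted p = 1.23e-06, edgeR). Each of these rises was called in all 24 alternative settings that were run.

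**Figure D2:**
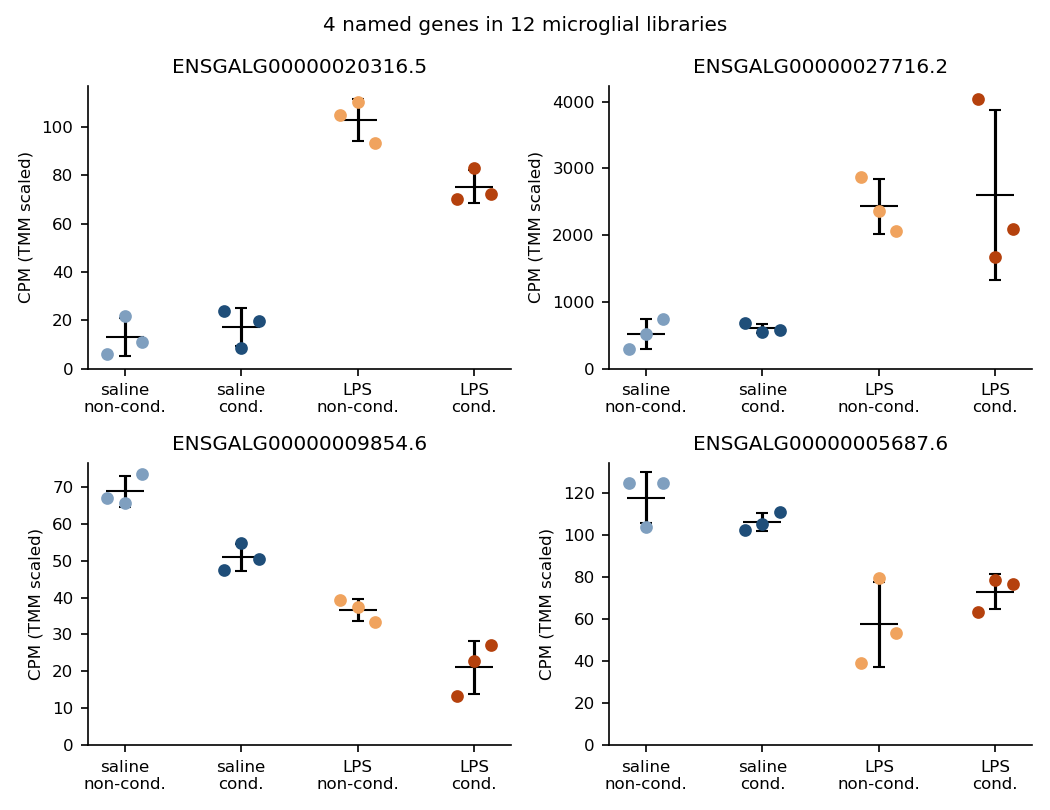
Levels of the 4 named genes in CPM (vertical axes, starting at 0) in each of 12 libraries, by group; points are libraries, the horizontal bar is the mean of 3 libraries and the whisker is 1 SD. In each gene the 6 LPS libraries do not overlap the 6 saline libraries, which was a condition for naming the gene.

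Of the falls without any overlap between the arms, the largest was in ENSGALG00000009854.6. It stood at 67.1, 65.7 and 73.6 CPM in the saline non-conditioned pools and at 47.6, 54.9 and 50.5 CPM in the saline conditioned pools. With LPS it stood at 39.3, 37.4 and 33.4 CPM without conditioning and at 13.2, 22.8 and 27.2 CPM with it. The levels therefore formed 4 steps that did not overlap, with conditioned pools below non-conditioned pools in each arm, although conditioning itself was not called for this gene (log2 difference -0.60, edgeR adjusted p = 0.999). LPS lowered it from 59.9 ± 10.4 to 28.9 ± 9.89 CPM (SD, n = 6), which is a fitted log2 fold change of -1.07 (standard error 0.21; adjusted p = 0.0131, edgeR). The call ended without LPS conditioned replicate 1 (edgeR adjusted p = 0.0570). DESeq2 gave a log2 fold change of -1.07 and no adjusted p for this gene, which its filter on mean counts set aside.

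ENSGALG00000005687.6 was the other gene named among the falls. By size it was in place 8 of the 9 falls, and it was named because its arms did not overlap. Its saline pools were close together, at 125, 104 and 125 CPM without conditioning and 103, 106 and 111 CPM with it. Its LPS pools ranged more widely, with 39.3, 79.7 and 53.5 CPM without conditioning and 63.6, 78.8 and 77.0 CPM with it. The gene went from 112 ± 10.3 to 65.3 ± 16.4 CPM (SD, n = 6), which is a fitted log2 fold change of -0.74 (standard error 0.17; adjusted p = 0.0417, edgeR). All LPS pools were below all saline pools, yet the call ended when any library other than LPS non-conditioned replicate 1 or 2 was left out, with edgeR adjusted p from 0.0610 to 0.115.

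The remaining raised genes are given by the place of their log2 fold change. The third largest rise had saline levels of 51.8, 38.3 and 55.8 CPM in non-conditioned and 53.1, 67.6 and 62.8 CPM in conditioned pools, and LPS levels of 138, 233 and 194 CPM and 250, 147 and 238 CPM. Its log2 fold change was 1.85 (standard error 0.18; adjusted p = 1.23e-06, edgeR), and the arms did not overlap. The gene in place 14 was among the steadiest of the abundant ones. It lay at 890, 723 and 890 CPM in the saline non-conditioned and 903, 773 and 946 CPM in the saline conditioned pools, then at 1243, 2020 and 1771 CPM and at 1698, 1846 and 1699 CPM with LPS. Its log2 fold change of 0.9996 (standard error 0.12; adjusted p = 3.87e-05, edgeR) came from pools whose arms did not overlap, and LPS non-conditioned replicate 1 was the lowest LPS library.

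The most abundant gene of all tested was also among those that rose, in place 23. It took 15185, 23559 and 35267 CPM in the saline non-conditioned and 21289, 30259 and 26115 CPM in the saline conditioned pools. With LPS it took 26512, 39012 and 44316 CPM without conditioning and 46921, 40185 and 45384 CPM with it. LPS non-conditioned replicate 1, at 26512 CPM, lay below saline non-conditioned replicate 3, at 35267 CPM, and saline conditioned replicate 2, at 30259 CPM, and the other 5 LPS pools lay above all saline pools. Its log2 fold change was 0.67 (standard error 0.16; adjusted p = 0.0427, edgeR), and the call remained in 3 of the 12 settings that left out 1 library.

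Of each saline library's counts, 2.10% to 3.62% (median 2.98%) fell on the 27 raised genes, against 3.64% to 5.89% (median 5.41%) of each LPS library's. Without the most abundant gene, the other 26 held 0.453% to 0.599% (median 0.525%) with saline and 1.03% to 1.37% (median 1.13%) with LPS. The 9 lowered genes held 0.169% to 0.273% (median 0.203%) with saline and 0.0892% to 0.128% (median 0.1001%) with LPS. These shares describe genes that were chosen for this difference and are no further evidence of it.

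The 3 largest falls rested on uneven saline libraries. The largest had 6, 3 and 29 counts in the saline non-conditioned and 39, 6 and 147 counts in the saline conditioned pools, against 3, 7 and 6 and then 3, 3 and 0 counts with LPS. Saline conditioned replicate 3 thus held 63.9% of its 230 saline counts. This library also had the largest total, at 963146 counts. In CPM the gene's saline pools lay at 18.3, 16.4 and 64.7 without conditioning and at 71.4, 25.3 and 151 with it. Its LPS pools lay from 0 to 20.1 CPM. The ratio of summed counts per total, saline over LPS, was 9.91 (95% interval 6.39 to 16.1, exact Poisson, for counting error only). Its fitted log2 fold change was -2.87 (standard error 0.52; adjusted p = 0.00609, edgeR). Within the states it was -1.48 without conditioning (edgeR adjusted p = 0.510) and -4.32 with it (edgeR adjusted p = 0.00309). The difference of -2.84 had a 95% interval of -5.06 to -0.63 (edgeR adjusted p = 0.549). The call over both states remained with any 1 library left out. It ended in both limma fits and with a robust spread in edgeR (adjusted p from 0.0636 to 0.128).

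The second largest fall had 2, 5 and 35 and then 34, 5 and 25 counts with saline, against 3, 4 and 3 and then 6, 6 and 2 counts with LPS. In CPM its saline pools ran from 6.10 to 78.1 and its LPS pools from 4.53 to 13.2. Its ratio was 4.19, with an interval of 2.67 to 6.82, and its log2 fold change was -2.03 (standard error 0.47; adjusted p = 0.0417, edgeR). With 1 library left out in turn its call remained in 4 of 12 settings (largest edgeR adjusted p = 0.164). The call also ended in both limma fits and with the replicate number as a block. A stricter filter on low counts (minimum count 20) left this gene untested. Without the 3 libraries farthest out on the first 3 components its log2 fold change was -1.49. The third largest fall was better covered but no more even. It lay at 110, 290 and 582 CPM and at 1454, 338 and 212 CPM with saline, and at 75.4, 66.7 and 167 CPM and 211, 151 and 172 CPM with LPS, in the same order of groups. Its log2 fold change was -1.85 (standard error 0.39; adjusted p = 0.0241, edgeR), and in all 3 genes the arms overlapped. Without saline conditioned replicate 1 the log2 fold change of -1.85 became -1.19 and the gene's call ended (edgeR adjusted p = 0.105). With 1 library left out in turn this call remained in 5 of the 12 settings. It ended in both limma fits, with library weights (adjusted p = 0.0966) and with quantile normalization (adjusted p = 0.153). A robust spread in edgeR also ended it (adjusted p = 0.314).

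The remaining falls were smaller and more even. The gene in place 5 among them lay at 405, 312 and 359 CPM and at 288, 249 and 261 CPM with saline. With LPS it lay at 275, 138 and 191 CPM and at 101, 151 and 179 CPM. Its log2 fold change was -0.88 (standard error 0.16; adjusted p = 0.00554, edgeR), and LPS non-conditioned replicate 1 was the single LPS library above the lowest saline ones. The smallest fall, with a log2 fold change of -0.69 (standard error 0.14; adjusted p = 0.0140, edgeR), had no overlap between the arms. It ranged from 278 to 529 CPM with saline and from 187 to 277 CPM with LPS.

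**Figure D3:**
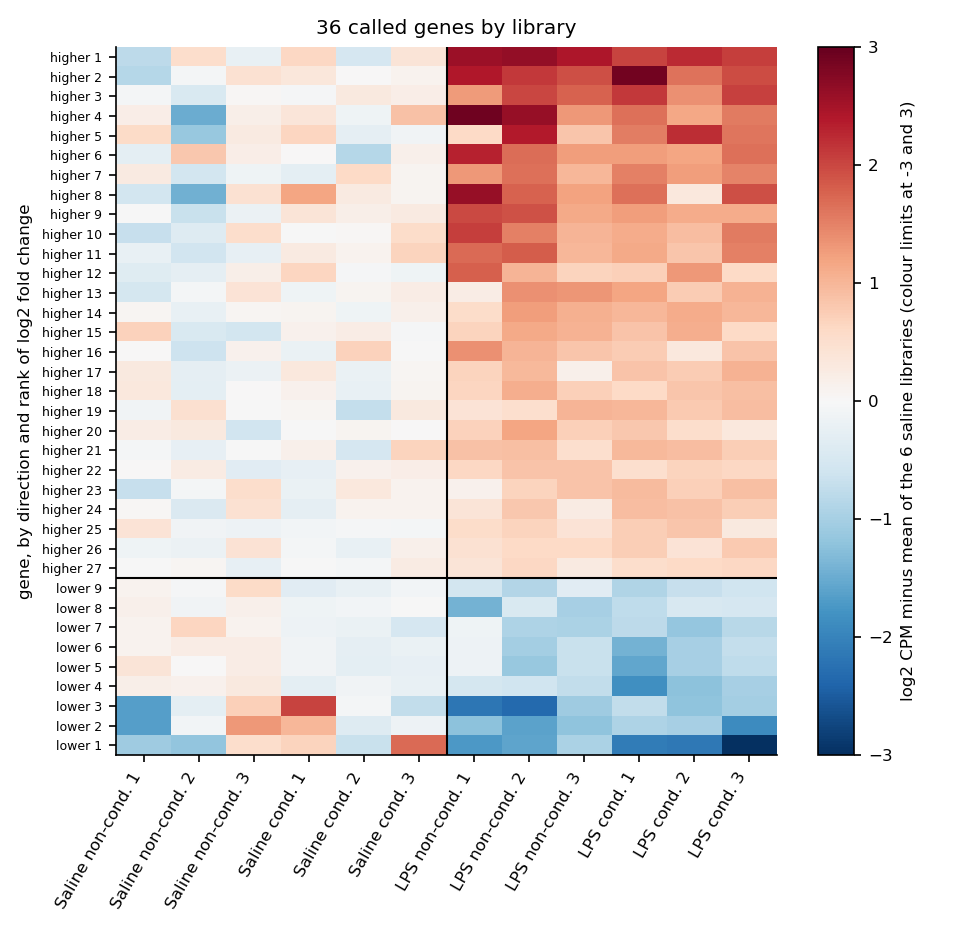
Each row is 1 of the 36 called genes, by direction and by rank of log2 fold change, and each column 1 of 12 libraries; colour is log2 CPM minus the mean of the 6 saline libraries. The 27 raised genes are above 0 with LPS, with the lowest median in LPS non-conditioned replicate 1 (0.70), and the 3 largest falls vary widely among the saline libraries.

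Over the called genes, which were chosen from these same pools, the LPS pools did not shift to the same degree. The median of the 27 raised genes, as log2 CPM relative to the mean of the saline libraries, was 0.70, 1.19 and 0.99 in the LPS non-conditioned pools and 0.99, 0.88 and 0.99 in the LPS conditioned pools. In the saline pools the same median ran from -0.28, in non-conditioned replicate 2, to 0.15, in conditioned replicate 3. For the 9 lowered genes it was -0.55, -1.02 and -0.96 in the LPS non-conditioned pools and -0.93, -1.002 and -0.84 in the LPS conditioned pools. LPS non-conditioned replicate 1, the library farthest out on component 3, thus had the smallest median shift in both directions, though it held the highest LPS level of some raised genes. Gene by gene, the lowest of the 6 LPS pools was LPS conditioned replicate 2 for 9 of the 27 raised genes and LPS non-conditioned replicate 1 for 6.

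No overlap between the 6 LPS and the 6 saline libraries was found for 14 of the 27 raised and 3 of the 9 lowered genes. Over all tested genes, the called ones included, 0.522% lay entirely above and 0.271% entirely below saline. The called genes were chosen for a difference in these same libraries, which favours their count. A further 24 genes did not overlap between the arms and were not called, 13 of them higher and 11 lower with LPS. Their median absolute log2 fold change was 0.51, and their edgeR adjusted p ran from 0.0572 to 0.628.

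How far the pooled response held in each conditioning state was examined next. All 27 raised and all 9 lowered genes had the same sign of change in non-conditioned and in conditioned birds, where 51.5% of all tested genes did. A gene with opposite signs would rarely pass a test of the common effect, so the choice of genes favours this count. The raised genes had a median log2 fold change of 1.07 without and 0.87 with conditioning, the lowered genes of -0.93 and -0.89. Among the raised genes 20 of 27 had the larger change in non-conditioned birds, and among the lowered genes 4 of 9, against 56.4% of all tested genes.

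Within single states, 28 genes were called in non-conditioned birds (0.542% of those tested, with 0.445% higher and 0.0967% lower) and 9 in conditioned birds (0.174%, with 0.116% higher and 0.058% lower). Of the 27 raised genes, 6 were called in both states, 8 in non-conditioned birds alone and 13 in neither. Of the 9 lowered genes, 1 was called in non-conditioned birds alone, 1 in conditioned birds alone and 7 in neither. Thus 20 of the 36 genes were called over both states and by neither within-state contrast, with all 12 libraries in each of these fits. The median half-width of a 95% interval was 0.47 on the log2 scale over both states. It was 0.69 and 0.63 within the non-conditioned and the conditioned state. The order of these 2 counts turned with the fit: when each state was fitted on its own 6 libraries, 11 genes were called in non-conditioned birds, all higher, and 54 in conditioned birds, 28 higher and 26 lower. The within-state counts also moved with single libraries. Among non-conditioned birds 65 genes were called when saline replicate 1 was dropped, 8 when saline replicate 2 was dropped and 12 when LPS replicate 2 was dropped. Among conditioned birds 2 were called when saline replicate 3 was dropped, and 4, 4 and 5 when LPS replicates 1, 2 and 3 were dropped in turn.

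**Figure D4:**
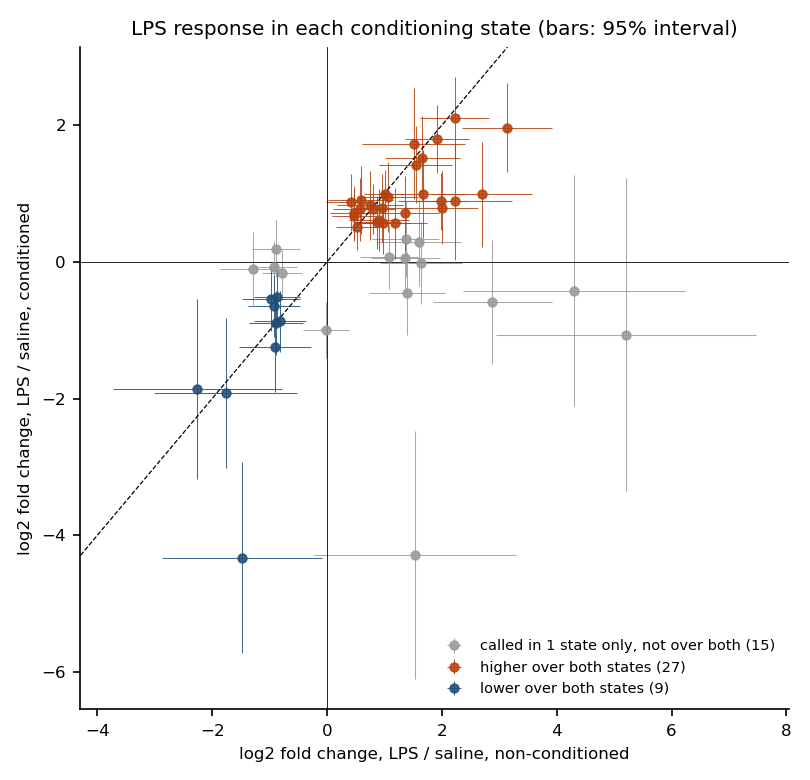
Log2 fold change of LPS against saline in non-conditioned birds (horizontal axis) and conditioned birds (vertical axis) with 95% intervals; the dashed line marks equal change. The 36 genes called over both states lie in the quadrants of equal sign, while the 15 genes called in 1 state but not over both (grey) lie closer to 0 or across it in the other state.

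Of the 31 genes called in a single state or in both, 16 were also called over both states and 15 were not. Those 15 were 9 higher and 4 lower in non-conditioned birds and 2 lower in conditioned birds. Of the 9 higher genes, 6 had their highest LPS level in LPS non-conditioned replicate 1, and 3 were still called in that state without this library. Leaving out any 1 library of the state kept between 0 and 7 of the 9 (edgeR). In 7 of the 15 genes the fitted change had opposite signs in the 2 states, with an edgeR adjusted p over both states from 0.419 to 0.759, and in the other 8 this p ran from 0.0943 to 0.343. The comparisons share their libraries, so these counts say where calls fell and do not add to each other.

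The test of whether the response itself differed with conditioning called 0 of 5170 genes with edgeR (smallest adjusted p = 0.172) and 0 with DESeq2, and 372 genes had an unadjusted p under 0.05, or 7.2% of those tested. Among non-conditioned pools, dropping saline replicate 1, saline replicate 2 or LPS replicate 3 raised the edgeR calls from 0 to 5, 1 and 2 genes. For ENSGALG00000020316.5 the log2 fold change was 3.13 ± 0.38 without and 1.97 ± 0.31 with conditioning (SE), a difference of -1.17 with a 95% interval of -2.27 to -0.06 (edgeR adjusted p = 0.673). For ENSGALG00000027716.2 it was 2.22 ± 0.29 and 2.11 ± 0.29 (SE), a difference of -0.11 with an interval of -0.93 to 0.71. The difference for ENSGALG00000009854.6 was -0.34 (interval -1.25 to 0.56), and for ENSGALG00000005687.6 it was 0.43 (interval -0.27 to 1.13). Among the 36 genes the interval of the difference included 0 in 31. It lay away from 0 in 4 genes with the larger change in non-conditioned and in 1 with the larger change in conditioned birds, before any adjustment for the number of genes.

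Conditioned against non-conditioned birds, with injection as the covariate, differed in 1 gene of 5170 (0.0193%, edgeR adjusted p = 0.0324), which was not among the 36. It lay at 851 ± 156 and 553 ± 54.9 CPM with saline and at 690 ± 170 and 347 ± 36 CPM with LPS, without and with conditioning (SD, n = 3). The call ended when any 1 of the 6 LPS libraries was dropped, and likewise for replicate 2 of the saline non-conditioned and replicates 1 and 3 of the saline conditioned group. Without saline non-conditioned replicates 1 and 3 the counts were 2 and 6.

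The list of 36 depended on single libraries, although no fitted direction did. With each library left out in turn all 36 genes kept their sign, 16 of them (13 higher, 3 lower) were called every time, and 13 were lost in at least 6 of the 12 settings. The count fell to 20 when saline non-conditioned replicate 2 was dropped and to 19 when LPS non-conditioned replicate 2 was. Dropping LPS conditioned replicate 1 left 20 genes, and dropping replicate 2 of that group left 22. It rose to 60, with 30 higher and 30 lower, without LPS non-conditioned replicate 1, and 35 of the 36 genes were among them. Without all 3 libraries that lay farthest out on the first 3 components it was 63, with 32 higher and 31 lower, and 27 of the 36 were kept. DESeq2 called 38 higher and 23 lower, and 33 of the 36 were among these; the other 3, the 2 largest falls and ENSGALG00000009854.6, had no adjusted p there. Through all 24 settings 12 genes were called every time, 10 of them higher and 2 lower.

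**Figure D5:**
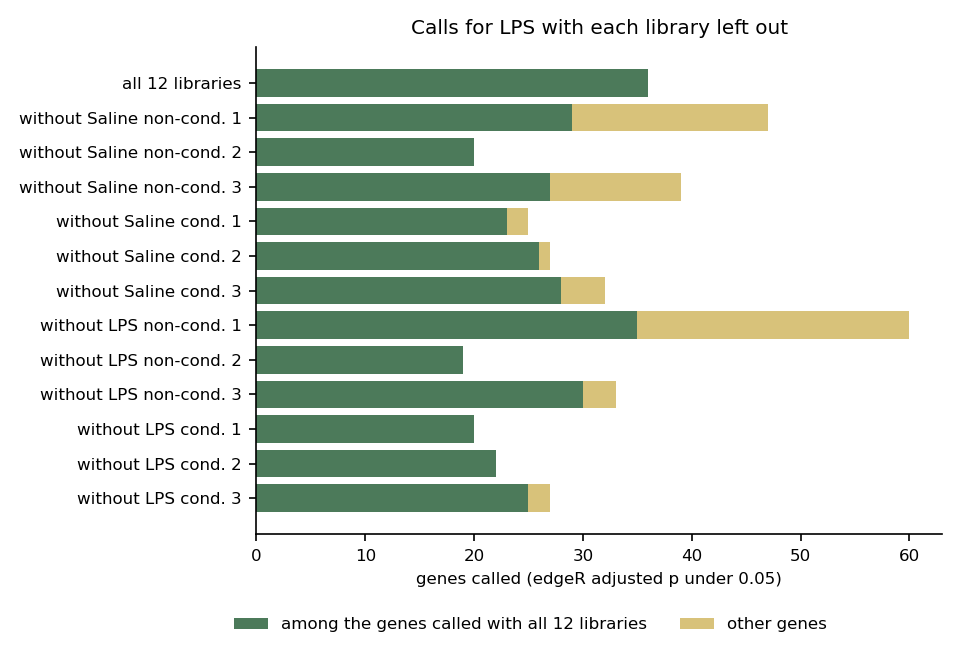
Number of genes called for LPS over both states (horizontal axis, edgeR adjusted p under 0.05) with all 12 libraries and with each left out; green bars are genes among the 36, yellow bars are other genes. The count runs from 19 to 60, and without LPS non-conditioned replicate 1 it gains 25 genes beyond 35 of the 36.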

How the data were processed

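Per the labels' protocols, 15 ng of RNA per pool went into bulk MARS-seq libraries of mRNA 3′ ends, read singly over 100 bp to a depth near 25 M reads. Build galGal5 and the tools STAR, HTSeq, cutadapt and DESeq2 appear in the submitters' processing notes; not given in the sources used here are versions, annotation release, strand setting and use of molecular identifiers, so counts of overlapping, antisense or near-identical genes are uncertain. Per the file headers, the authors deposited raw counts for 11207 genes in 12 libraries. A normalized signal deposited beside them equals the count times a factor of its library (largest deviation 0.00663); it served only for an alternative scaling. Library totals were 0.757% to 3.85% of the stated reads. The floors and the intervals of summed-count ratios cover counting error only. Intervals of log2 fold changes and of their differences come from the edgeR fit and include the spread between pools.

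Of 25635 genes in the reference list (GRCg7b), 0 carry an Ensembl identifier, so 0 of 11207 identifiers matched a symbol, and the planned gene and marker lists were not used. The filter was filterByExpr over the 4 groups (minimum count 10), which left 5170 genes, and the scaling TMM. All 12 libraries entered an edgeR 4.0.16 quasi-likelihood fit in R 4.3.3, with terms for injection and conditioning and 2-sided tests. Within-state and interaction values come from a fit with 1 mean per group. The SE is the size of the log2 fold change divided by the square root of F; log2 CPM has a prior count of 2. The named genes are the 2 largest rises and the 2 largest falls among called genes with a mean of at least 20 CPM and no overlap between the arms. Members and lists were chosen with earlier results of these data known. Replicates are separate pools as far as the labels say; their log2 CPM correlated at 0.884 to 0.956, and a chi-square of their counts per degree of freedom was 1.83 to 7.66, so none was treated as a duplicate. Alternatives used limma 3.58.1 and DESeq2 1.42.0. The scripts were tested on simulated data.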

Additional observations from a re-analysis of the deposited data

How the results depend on the processing

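The scaling by the authors' factors and the fit without 3 libraries, which left in those farthest out on components 4 and 5, were chosen after the data were seen. Over both states LPS changed 36 genes. Library weights in limma gave 56, DESeq2 61, no filter on low counts 100 (56 higher, 44 lower), an adjusted p under 0.1 gave 61, leaving out the 3 libraries farthest out on the first 3 components 63, and leaving out 1 library 19 to 60. The other settings gave 30 to 42, and the median over all genes shifted by at most 0.0205 on the log2 scale. In non-conditioned birds the count of 28 became 80 with no filter, 11 with the compared libraries alone and 8 to 65 with a library left out. In conditioned birds the count of 9 became 15 with DESeq2, 65 with no filter, 54 with the compared libraries alone and 2 to 8 with a library left out. The interaction went from 0 to 35 with no filter and 0 to 5 with a library left out. Conditioning went from 1 to 42 with no filter, 0 with the replicate block and 0 to 6 with a library left out. The cause of these moves was not tested.

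The difference in mean total count between LPS and saline libraries, -24192, ran from -79825 to 74968 with a library left out and was above 0 in 4 of these settings; the difference in genes detected, 268, ran from 89.7 to 465, and that in the share of the 10 most abundant genes, 0.685 percentage points, from 0.0163 to 1.58. Deviations of same-numbered libraries of different groups correlated weakly (18 correlations from -0.11 to 0.13, median 0.02). The 36 correlations between different numbers ran from -0.16 to 0.13 (median -0.02). Between saline conditioned and LPS non-conditioned pools, a pair of groups picked out from all pairs, the same-numbered values were 0.094, 0.097 and 0.088. The different-numbered values there were all negative. As deviations within a group offset each other, this largely follows from the same-numbered values and is no separate sign of pairing. In other pairs the same-numbered values were positive, as between saline non-conditioned and LPS conditioned pools (0.037, 0.017 and 0.129), or mixed. Between saline non-conditioned and LPS non-conditioned pools they were -0.11, -1.98e-05 and 0.040. The main fits did not pair the samples by number, and whether the numbers mark a shared batch was not tested. With the number as a replicate block, LPS changed 30 genes over both states, 27 of the 36 among them, and ENSGALG00000005687.6 had an adjusted p of 0.0516. DESeq2 gave no adjusted p for ENSGALG00000009854.6. Of the other 95 values of the named genes under alternatives, 82 kept direction and call, 13 lost the call and 0 changed sign. For a typical gene a change within 0.47 on the log2 scale was not resolved even before adjustment for the number of genes. A call asked for more, since the largest unadjusted p among the 36 genes was 0.00033 (edgeR).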

Other observations

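Among the 158 tested genes with a mean above 1000 CPM, 4 were called and 3 others had an absolute log2 fold change of at least 0.9 without being called; these 3 were chosen after their values were seen. The second most abundant gene of the table lay at 13980, 19640 and 45150 CPM in the saline non-conditioned and 74520, 26960 and 20780 CPM in the saline conditioned pools. With LPS it lay at 11030, 11040 and 17970 CPM and at 28110, 18050 and 15300 CPM, a log2 fold change of -0.98 (standard error 0.27; adjusted p = 0.113, edgeR). The gene in place 15 by abundance had its 2 highest levels in the same libraries, at 20620 CPM in saline conditioned replicate 1 and 12930 CPM in saline non-conditioned replicate 3. Its log2 fold change was -1.21 (standard error 0.29; adjusted p = 0.0519, edgeR). The third largest of the called falls was highest in the same 2 libraries as well, at 1454 and 582 CPM. The last of the 3 genes was at 5913 CPM in saline non-conditioned replicate 2 and 4538 CPM in LPS non-conditioned replicate 1 and between 35.7 and 906 CPM in the other 10 libraries (edgeR adjusted p = 0.758).

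The spread between pools was not equal in the 4 groups. The median SD of log2 CPM over the tested genes was 0.371 in saline non-conditioned and 0.308 in LPS non-conditioned pools, against 0.263 in saline conditioned and 0.241 in LPS conditioned pools (n = 3 each). Depth differs between these libraries as well, and its part in these values was not tested.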
